A study of Mus musculus with 10 samples.

Results

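Heat production in brown fat was followed here through 10 transcripts, *Ucp1*, *Ucp2*, *Ucp3*, *Letmd1*, *Dio2*, *Ckb*, *Gatm*, *Gamt*, *Atp2a2* and *Gk*. Each was listed by name for a role in uncoupling, thyroid hormone activation, brown fat heat production or a cycle that spends ATP without net work. These 10 were chosen with earlier results of these data known. They are 10 of the 27267 genes listed for interscapular brown adipose tissue (iBAT), and all 10 passed the filter on low values that left 13714 genes for testing. The iBAT came from C57BL/6 males of 4 weeks kept on chow, 5 labelled wild type (WT) and 5 labelled *Mgp* KO. *Mgp* encodes matrix Gla protein, an inhibitor of bone morphogenetic proteins, and the methods give the line B6.129S7-Mgptm1Kry/KbosJ with a global deletion, not one limited to adipose cells. The design asked how the transcripts of brown fat differ without *Mgp*. All values are normalized counts, that is reads counted on a gene divided by the size factor of the library, and they come from whole tissue, in which fewer brown adipocytes and less RNA per brown adipocyte cannot be told apart.

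Brown adipocytes release the energy of fat and glucose as heat. The uncoupling protein UCP1 lets protons back across the inner mitochondrial membrane without making ATP, and thyroid hormone activated in the tissue by the enzyme DIO2 and noradrenaline acting on β3-adrenergic receptors both raise its gene. Other routes reach heat through cycles: phosphorylation and dephosphorylation of creatine, pumping of calcium into the endoplasmic reticulum and its leak back out, and breakdown of triglycerides followed by their rebuilding from glycerol.

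The libraries fell into separate sets. Replicates 1 to 3 held 19616366 to 22252260 reads on genes and replicates 4 and 5 held 9253793 to 13281873, with mitochondrial rRNA at 0.771% to 1.72% and 6.50% to 16.7% of them, and 38.2% of tested genes differed between the sets with genotype in the model (limma, adjusted p under 0.05). What separated the sets is not given in the labels, so each comparison is also given within them. *Mgp* itself was at 466 to 1146 normalized counts in WT and at 0 to 0.821 in *Mgp*-KO 1 to 3, but at 500.2 (309 reads) in *Mgp*-KO 4 and 331 (282 reads) in *Mgp*-KO 5. These reads go against the labels of the last pair, so these 5 are called KO-labelled libraries throughout, and counts are also given without that pair. *Xist*, a transcript of the inactive X chromosome of females, was at 5094 in WT 2 and at 0.754 to 44.0 in the other 9 libraries, which goes against the label male of WT 2. The summed level of 10 brown adipocyte markers was 174540 to 345293 in WT and 149439 to 292131 in the KO-labelled libraries, and no marker of that list was at 0 in any library. Skeletal muscle markers, 10 genes, summed to 48.7 to 6914 in WT, to 49.3 to 355 in *Mgp*-KO 1, 3 and 4, and to 41293 and 38792 in *Mgp*-KO 2 and 5, with *Tnnc2* and *Actn3* at 0 in some libraries. Endothelial markers, 7 genes, summed to 15067 to 24180 in WT and 17089 to 43088 in the KO-labelled libraries, and 7 of 7 had a log2 fold change above 0 (median 0.41). Within replicates 1 to 3 the median was 0.17, with 2 of 7 below 0, and within replicates 4 and 5 it was 0.85, with 7 of 7 above 0. Of 6 markers of Schwann cells and nerve, 5 were below 0 (median -0.44), with medians of -0.64 in replicates 1 to 3 and 0.28 in replicates 4 and 5. None of these 13 genes passed limma over all 10 libraries, with or without the set term, and their part in the results was not tested.

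*Ucp1*, *Ucp3* and *Dio2* were lower and *Ckb* was higher in the KO-labelled libraries once the set was in the model. With 10 libraries and no further term (limma on log2(normalized count + 1)), none of the 10 transcripts passed an adjusted p of 0.05, where 0.0656% of all tested genes did. At an unadjusted p under 0.05, *Ucp1*, *Ucp3*, *Letmd1*, *Dio2*, *Ckb* and *Gk*, 6 of the 10, passed, beside 10.4% of all genes. EdgeR without a further term called 0 of the 10 and 0.0219% of all genes, and DESeq2 called *Ucp1*, *Ucp3* and *Ckb*, beside 2.26% of its 16549 genes. With a term for the set, limma called *Ucp1*, *Ucp3*, *Dio2* and *Ckb*, 4 of the 10, beside 2.36% of all genes. Of these, 3 were lower, as were 1.54% of genes, and *Ckb* was higher, as were 0.824%. EdgeR with the set term called the same 4, beside 2.49%. Without *Mgp*-KO 4 and 5, limma called *Ucp1*, *Ucp3* and *Ckb*, beside 1.95% of all genes. Without *Mgp*-KO 4 alone it called *Ucp1* and *Ckb*, beside 0.678%. The median log2 fold change of the 10 was -0.58, with 8 below 0, beside a median of 0.03 over all tested genes. Below, a gene is said to have fallen or risen only where a named test passed.

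**Figure D1:**
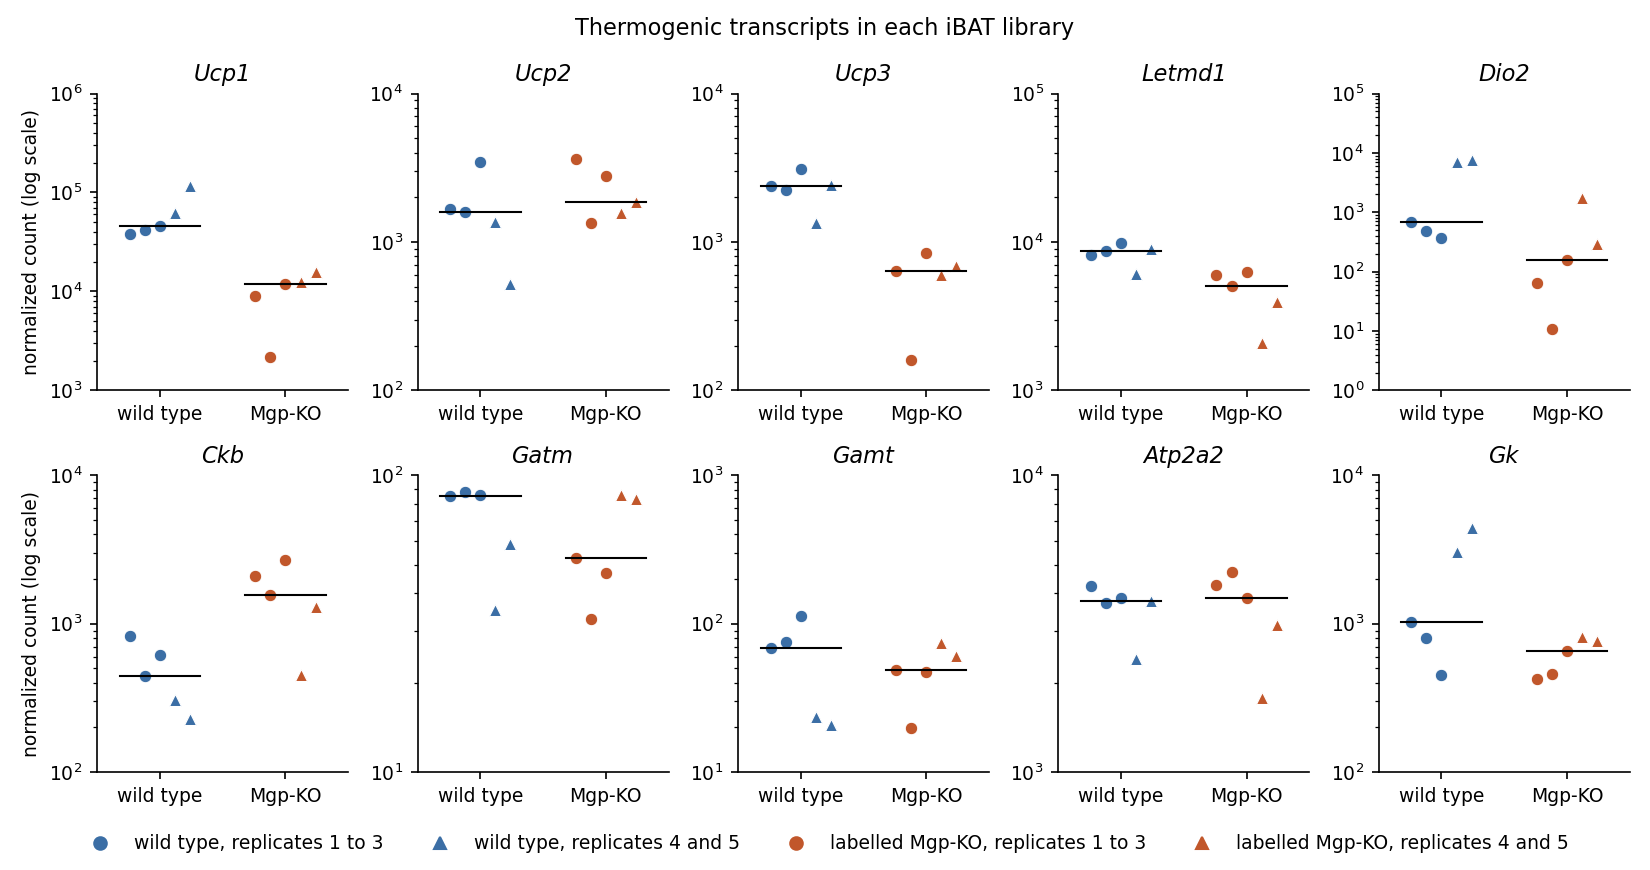
Normalized counts (log scale) of the 10 thermogenic transcripts in each library, with blue for wild type and orange for the KO-labelled libraries, circles for replicates 1 to 3, triangles for replicates 4 and 5 and a line at each group's median. *Ucp1* and *Ucp3* separate the groups in all 10 libraries, while *Dio2* and *Gk* are highest in WT 4 and 5 and *Gatm* and *Gamt* are lower in the orange than in the blue circles and higher in the orange than in the blue triangles.

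The sequences just upstream of *Ucp1*, *Ucp3*, *Dio2* and *Ckb* are printed because these 4 transcripts passed the test with the set term. Each run holds the 250 bases before the RefSeq start on GRCm38.p6, written 5′ to 3′ on the gene's own strand. Capitals mark every match on either strand to a motif. The motifs were the cAMP response element, spelled TGACGTCA, and its shorter core, spelled TGACG, which was counted also where it lies inside the longer one. They were also the hexamer bound by nuclear receptors, spelled AGGTCA, and the TATA box, spelled TATAAA. The last were the GC box, spelled GGGCGG, and the E-box, spelled CACGTG. *Ucp1* lies at chr8:83290098-83290347 (plus strand), *Ucp3* at chr7:100472741-100472990 (plus), *Dio2* at chr12:90739039-90739288 (minus) and *Ckb* at chr12:111672339-111672588 (minus).
Ucp1: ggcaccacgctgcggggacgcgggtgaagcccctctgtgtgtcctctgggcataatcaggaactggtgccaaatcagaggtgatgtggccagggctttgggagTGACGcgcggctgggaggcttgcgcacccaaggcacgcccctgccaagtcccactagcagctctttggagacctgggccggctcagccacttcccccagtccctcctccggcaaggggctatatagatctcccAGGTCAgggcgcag
Ucp3: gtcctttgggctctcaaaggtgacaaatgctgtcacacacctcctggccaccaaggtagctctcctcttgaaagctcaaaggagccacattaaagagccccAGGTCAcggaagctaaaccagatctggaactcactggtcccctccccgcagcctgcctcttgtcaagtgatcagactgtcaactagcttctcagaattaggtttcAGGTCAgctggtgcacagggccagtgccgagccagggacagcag
Dio2: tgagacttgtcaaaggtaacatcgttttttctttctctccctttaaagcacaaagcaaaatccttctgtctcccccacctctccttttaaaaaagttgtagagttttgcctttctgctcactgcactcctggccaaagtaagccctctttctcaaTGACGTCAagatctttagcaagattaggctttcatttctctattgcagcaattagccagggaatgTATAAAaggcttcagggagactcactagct
Ckb: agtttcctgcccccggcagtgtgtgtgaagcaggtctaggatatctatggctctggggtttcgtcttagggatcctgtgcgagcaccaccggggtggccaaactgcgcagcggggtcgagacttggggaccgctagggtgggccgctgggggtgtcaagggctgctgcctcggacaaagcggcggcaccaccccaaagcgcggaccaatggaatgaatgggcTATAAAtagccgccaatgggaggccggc

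No motif was found in all 4 windows. *Dio2* held the full cAMP response element at position -95, counted back from the start, which 1.55% of 32851 mouse windows of the same length held, and a TATA box at -30, held by 12.4%. *Ckb* held only a TATA box, at -28. *Ucp1* held the shorter core at -147, found in 17.8% of windows, and AGGTCA at -14, found in 14.0%. *Ucp3* held AGGTCA at -149 and at -44. Of the other windows at hand, those of *Letmd1* and *Gatm* held AGGTCA, that of *Ucp2* the shorter core and a GC box, those of *Letmd1*, *Gamt* and *Gk* GC boxes (32.7% of windows), and that of *Gk* an E-box (6.02%). A match is a description of these letters and does not show a site in use.

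*Ucp1* was the most abundant of the 10 per length in both groups. The gene spans chr8:83290352-83298452 (GRCm38, plus strand). WT 1 to 5 had 38421, 41322, 46191, 62428 and 116019 normalized counts of *Ucp1*, and *Mgp*-KO 1 to 5 had 8939, 2201, 11904, 12319 and 15641. Every library labelled *Mgp*-KO was below every WT library, as were 2.11% of tested genes, and no transcript of the 10 was above in every library, where 1.39% of genes were. The mean was 60876 ± 32192 (SD, n = 5) in WT and 10201 ± 5064 (SD, n = 5) in the KO-labelled libraries, 5.97 times lower. The log2 fold change was -2.70 (SE 0.51, 95% interval -3.82 to -1.58) with an adjusted p of 0.0601, so the call missed the threshold, and with the set term *Ucp1* fell with an adjusted p of 0.0127. Within replicates 1 to 3 it fell by 2.76 on the log2 scale (adjusted p = 0.0454), where 3.54% of genes passed and 1.65% were lower, but edgeR did not call it there (adjusted p = 0.0559) and limma lost the call without any 1 of these libraries other than *Mgp*-KO 2. Within replicates 4 and 5 the value was -2.62 (adjusted p = 0.679, with 2 libraries a group).

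Like *Ucp1*, which is not in that list, none of the 10 brown adipocyte markers passed limma over all 10 libraries without a further term. With the set term 1 of them passed in limma, *Elovl3*, a fatty acid elongase induced by cold, which was named after its values were seen. DESeq2 without a further term called *Elovl3* alone of the markers, lower, beside 2.26% of its 16549 genes. It was at 35.1 to 2037 normalized counts in WT and 5.28 to 139 in the KO-labelled libraries, with a log2 fold change of -3.64. Within replicates 1 to 3 *Elovl3* fell and *Lhx8*, a transcription factor of brown adipocytes, rose, at 57.9, 54.7 and 40.4 in WT 1 to 3 and 110.0, 179.0 and 155 in *Mgp*-KO 1 to 3, by 1.51 on the log2 scale. The median log2 fold change of the markers was -0.25, with 7 of the 10 below 0, and their part in the *Ucp1* values was not tested.

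*Ucp3*, an uncoupling protein homologue of brown fat and skeletal muscle that lies next to *Ucp2*, followed *Ucp1* closely. It spans chr7:100472990-100486432 (plus strand), and 6904 bases separate its end from the start of *Ucp2*. *Ucp3* was at 2395, 2242, 3119, 1337 and 2431 normalized counts in WT 1 to 5 and at 641, 161, 840.0, 599 and 688 in *Mgp*-KO 1 to 5. The groups did not overlap, and *Mgp*-KO 2 was the lowest. Its means were 2305 ± 638 (SD, n = 5) and 586 ± 255 (SD, n = 5), 3.93 times lower, with a log2 fold change of -2.11 (SE 0.41, 95% interval -3.01 to -1.22). The adjusted p was 0.0646, and 0.0252 with the set term, with which *Ucp3* fell. The values within the sets were -2.53 (adjusted p = 0.0557) in replicates 1 to 3 and -1.49 (adjusted p = 0.679) in replicates 4 and 5. The skeletal muscle markers summed to 56.5, 41293, 49.3, 355 and 38792 in *Mgp*-KO 1 to 5, and their part in the level of *Ucp3* was not tested. Without *Mgp*-KO 2 the log2 fold change was -1.69 and *Ucp3* passed the threshold (adjusted p = 0.0437), as did 0.0656% of all genes.

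Of the uncoupling proteins, *Ucp2* showed no such difference. It encodes a carrier of many tissues, immune cells among them, and spans chr7:100493337-100502020 (plus strand), with 305 exon bases that overlap *Dnajb13* on the other strand. *Ucp2* was at 1662, 1601, 3436, 1360.2 and 521 normalized counts in WT 1 to 5 and at 3629, 1332, 2793, 1557 and 1855 in *Mgp*-KO 1 to 5. The groups overlapped, with a log2 fold change of 0.52 (95% interval -0.45 to 1.48, adjusted p = 0.737). It was 0.19 in replicates 1 to 3 and 1.01 in replicates 4 and 5, where both KO-labelled values were above both WT values, as for 20.3% of tested genes. Macrophage markers, 8 genes, summed to 1461 to 2483 in WT and 1643 to 2295 in the KO-labelled libraries. Their median log2 fold change was -0.13 in replicates 1 to 3, with 6 of 8 below 0, and 0.41 in replicates 4 and 5, with 8 of 8 above 0. The part of macrophages in the *Ucp2* values was not tested. *Ucp3* exceeded *Ucp2* in 3 of 5 WT libraries, with a ratio of their normalized counts of 0.908 to 4.67, and was below it in all 5 labelled *Mgp*-KO, at 0.121 to 0.385. The ratio of *Ucp1* to *Ucp3* was 14.8 to 18.4 in WT 1 to 3 and 13.7 to 14.2 in *Mgp*-KO 1 to 3, and in replicates 4 and 5 it was 46.7 and 47.7 in WT against 20.6 and 22.7.

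*Letmd1*, an inner mitochondrial membrane protein required for heat production in brown fat, was second to *Ucp1* in level per length. It spans chr15:100469023-100479164 (plus strand). *Letmd1* was at 8129, 8626, 9852, 6054 and 8989.6 normalized counts in WT 1 to 5 and at 5969.9, 5059, 6293, 2099.5 and 3919 in *Mgp*-KO 1 to 5. WT 4 lay below *Mgp*-KO 3, and within each set the groups did not overlap. The log2 fold change was -0.92 (SE 0.30, 95% interval -1.57 to -0.27, adjusted p = 0.275), and the adjusted p was 0.0572 with the set term. DESeq2 with the set term called it lower (adjusted p = 0.0027), beside 7.42% of its 15533 genes.

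**Figure D2:**
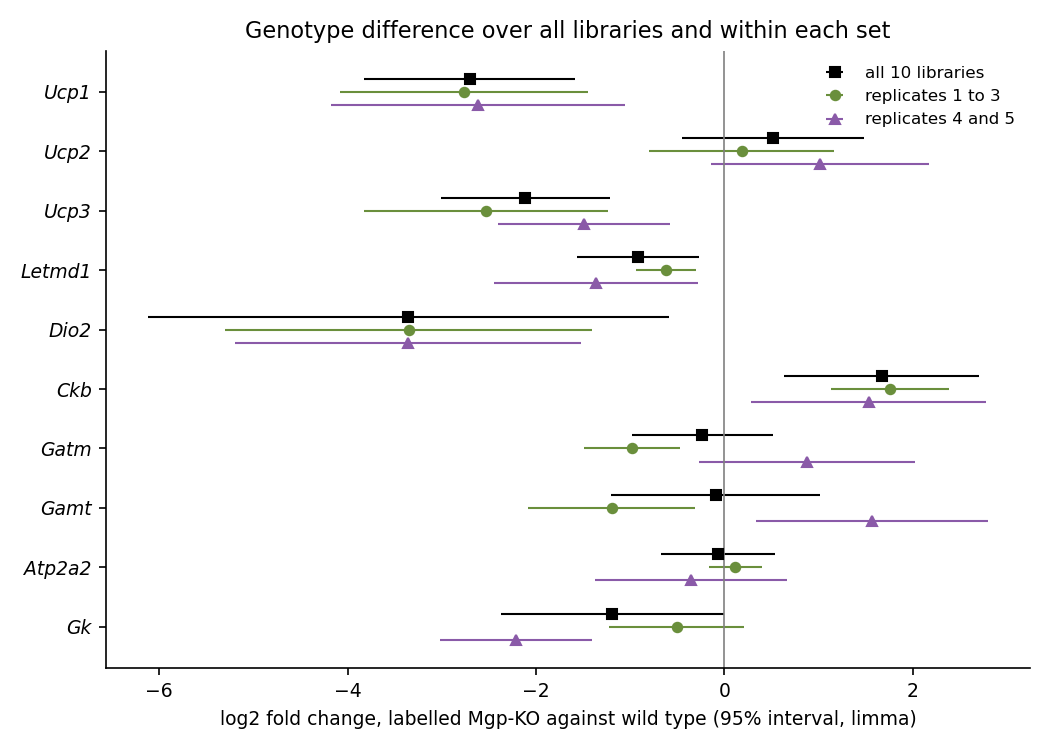
Log2 fold change of each of the 10 transcripts, libraries labelled *Mgp*-KO against wild type, with its 95% interval from limma, over all 10 libraries (black squares), replicates 1 to 3 (green circles) and replicates 4 and 5 (purple triangles). *Ucp1*, *Ucp3*, *Letmd1*, *Dio2* and *Gk* are below 0 and *Ckb* and *Ucp2* are above 0 in all 3 comparisons, while *Gatm*, *Gamt* and *Atp2a2* have values of opposite sign in the sets.

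*Dio2*, the deiodinase that turns thyroxine into active triiodothyronine inside the tissue, had the widest range of the 10 relative to its level. It spans chr12:90724552-90738438 (minus strand). *Dio2* was at 698, 491, 376, 7122 and 7534 normalized counts in WT 1 to 5 and at 64.8, 10.7, 157, 1739 and 293 in *Mgp*-KO 1 to 5. Within each set every library labelled *Mgp*-KO was below every WT library, as for 15.1% of tested genes in replicates 1 to 3 and 21.3% in replicates 4 and 5. But WT 1 to 3 lay below *Mgp*-KO 4, since *Dio2* was higher in replicates 4 and 5 by 3.85 on the log2 scale (adjusted p = 0.0011). The log2 fold change was -3.35 (SE 1.27, 95% interval -6.12 to -0.59), with an adjusted p of 0.363 without and 0.0228 with the set term, so *Dio2* fell by the test that holds the set. The sets gave nearly the same value, -3.35 (adjusted p = 0.0762) in replicates 1 to 3 and -3.36 (adjusted p = 0.679) in replicates 4 and 5, and their difference was -0.0041 (95% interval -3.03 to 3.02). In *Mgp*-KO 2 the level rested on 14 reads, and without that library the log2 fold change over the rest was -2.45 (adjusted p = 0.594 with no set term). Over the 25 alternatives with all sets the log2 fold change ranged from -4.89 to -2.45. Of the windows printed above, only that of *Dio2* held the full cAMP response element.

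Around *Dio2*, 12 genes of thyroid hormone handling were listed and 9 were tested. None passed limma over all 10 libraries, and with the set term *Thrsp* alone passed, lower. DESeq2 without a further term also called *Thrsp* alone of them, lower, beside 2.26% of its 16549 genes. The median log2 fold change of the 9 was -0.05. Over replicates 1 to 3 alone it was 0.13, and over replicates 4 and 5 alone it was -0.47. *Thrsp*, a nuclear protein of lipid synthesis named for its response to thyroid hormone and the most abundant of the list, was at 27719.6 to 54016 normalized counts in WT and 13099 to 25669 in the KO-labelled libraries, without overlap. Its log2 fold change was -1.28 (adjusted p = 0.0935, and 0.0182 with the set term). *Dio1*, *Dio3* and *Slco1c1*, the other deiodinases and a thyroid hormone transporter, were under the filter, and *Dio1* had reads in 1 library only.

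*Ckb*, the creatine kinase that phosphorylates creatine in brown fat mitochondria and cytosol, went the other way from *Ucp1*. It spans chr12:111669361-111672338 (minus strand). *Ckb* was at 831, 441, 616, 305 and 227 normalized counts in WT 1 to 5 and at 2110.3, 1570.5, 2670.3, 453 and 1286 in *Mgp*-KO 1 to 5. Within each set the KO-labelled libraries were all higher, as for 15.5% of tested genes in replicates 1 to 3 and 20.3% in replicates 4 and 5. Across sets *Mgp*-KO 4 fell within the WT range. The means were 484 ± 244 (SD, n = 5) in WT and 1618 ± 839 (SD, n = 5) in the other group, 3.34 times higher. The log2 fold change was 1.67 (SE 0.48, 95% interval 0.63 to 2.71), with an adjusted p of 0.215 over all 10 libraries and 0.0162 with the set term, with which *Ckb* rose. Within replicates 1 to 3 it rose by 1.76 (adjusted p = 0.0216), where 1.9% of genes were higher, and the value in replicates 4 and 5 was 1.53 (adjusted p = 0.679). The sums of skeletal muscle markers in *Mgp*-KO 1 to 5 (56.5, 41293, 49.3, 355 and 38792) stand beside these values, and their part in the level of *Ckb* was not tested.

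*Gatm* and *Gamt*, which make creatine in successive steps, were low in iBAT, and neither passed limma over all libraries or within either set, though without *Mgp*-KO 2 *Gatm* passed in limma within replicates 1 to 3 (adjusted p = 0.0425), and DESeq2 called both there, beside 9.19% of its 14739 genes. *Gatm* (chr2:122594467-122611303, minus strand) was at 85.1, 87.6, 86.0, 35.2 and 58.8 normalized counts in WT 1 to 5 and at 52.8, 32.9, 46.8, 85.8 and 83.2 in *Mgp*-KO 1 to 5. *Gamt* (chr10:80258151-80261012, minus strand) was at 68.7, 75.6, 113, 23.5 and 20.8 in WT and at 49.0, 19.9, 47.6, 74.5 and 61.0 in the KO-labelled libraries. Both were lower without overlap in *Mgp*-KO 1 to 3, as were 15.1% of tested genes, and higher without overlap in *Mgp*-KO 4 and 5, as were 20.3%. The log2 fold changes of *Gatm* were -0.98 (adjusted p = 0.0572) and 0.88 (adjusted p = 0.679) in the sets, and those of *Gamt* -1.20 (adjusted p = 0.131) and 1.57 (adjusted p = 0.679). The difference between the sets was 1.85 (95% interval 0.92 to 2.79) for *Gatm* and 2.76 (95% interval 1.47 to 4.05) for *Gamt*, each with an adjusted p of 0.455 over all genes. *Mgp* reads were present in *Mgp*-KO 4 and 5, and the part of that in this difference cannot be told apart from the set. The fewest reads behind a value were 24 for *Gatm* and 12 for *Gamt*.

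Of 5 further genes of the creatine cycle, 4 were tested, and none passed limma over all 10 libraries, with or without the set term. Their median log2 fold change was 0.13, beside 0.38 within replicates 1 to 3, -0.26 within replicates 4 and 5 and 1.60 in DESeq2, so no direction is given for the list. *Ckm* and *Ckmt2*, creatine kinases of muscle, are among them, and *Ckm* was at 3357 and 4078 in *Mgp*-KO 2 and 5 and at 1.64 to 807 elsewhere. *Slc6a8*, the creatine transporter and the most abundant of them, was at 1068, 932 and 1217 normalized counts in WT 1 to 3 and at 2957, 3068 and 2069 in *Mgp*-KO 1 to 3, where it rose by 1.32 on the log2 scale (adjusted p = 0.0170). In replicates 4 and 5 it was at 361 and 322 in WT and at 342 and 569.7 in the other group. Over all 10 libraries the adjusted p was 0.658, and 0.0526 with the set term. *Alpl*, the phosphatase that can dephosphorylate phosphocreatine in brown fat mitochondria, was at 182 to 377 in WT and 111 to 253 in the KO-labelled libraries, with a log2 fold change of -0.69 (adjusted p = 0.426).

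**Figure D3:**
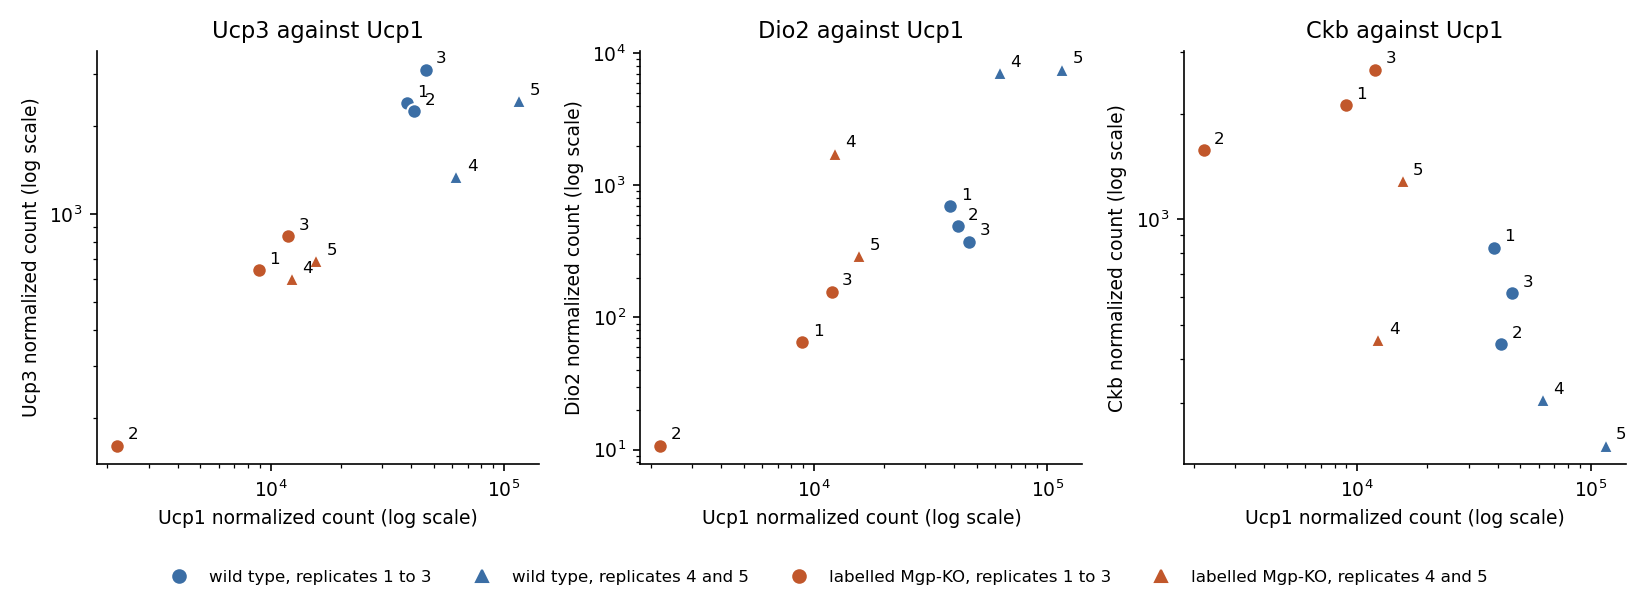
*Ucp3*, *Dio2* and *Ckb* against *Ucp1* in normalized counts on log axes, 1 point per library, with the replicate number beside it, blue for wild type and orange for the KO-labelled libraries, circles for replicates 1 to 3 and triangles for replicates 4 and 5. *Ucp3* and *Dio2* rise and *Ckb* falls along *Ucp1*, and *Mgp*-KO 2, at 2201 normalized counts of *Ucp1*, is lowest in *Ucp1*, *Ucp3* and *Dio2*.

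*Atp2a2*, which encodes the SERCA2 pump that carries calcium into the endoplasmic reticulum, did not separate the groups. It spans chr5:122453513-122502225 (minus strand). *Atp2a2* was at 4251, 3715, 3861, 2399 and 3783 normalized counts in WT 1 to 5 and at 4277, 4713, 3875, 1774 and 3132 in *Mgp*-KO 1 to 5. The lowest value of each group was in replicate 4. Its log2 fold change was -0.07 (95% interval -0.67 to 0.53, adjusted p = 0.960), and the value was 0.27 without *Mgp*-KO 4 and 5. It was lower in replicates 4 and 5 than in 1 to 3 by 0.62 on the log2 scale (adjusted p = 0.0302). Of 14 further genes of calcium cycling, 10 were tested and none passed limma, with or without the set term, and 8 of the 10 were above 0, with a median of 0.44. *Itpr2*, an inositol trisphosphate receptor that releases calcium and the most abundant of them, was at 4402 to 6296 in WT and 5673 to 10240.3 in the KO-labelled libraries (log2 fold change 0.39, adjusted p = 0.566). *Atp2a1*, the calcium pump of skeletal muscle, is itself among the skeletal muscle markers, so it moves with their sum by construction. *Ryr1*, the release channel of skeletal muscle, is not a marker and was at 2490.0 in *Mgp*-KO 2, 668 in *Mgp*-KO 5 and 2.99 to 161 elsewhere. The part of muscle in the median of this calcium list was not tested.

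*Gk*, the glycerol kinase that lets brown adipocytes put glycerol back into triglycerides, had a lower mean in the KO-labelled libraries but passed no limma test of genotype. It spans chrX:85701937-85776819 (minus strand). *Gk* was at 1019, 799.7, 451, 3039 and 4388 normalized counts in WT 1 to 5 and at 425, 461, 654, 816 and 762 in *Mgp*-KO 1 to 5. In replicates 1 to 3 the groups overlapped, and WT 4 and 5 were far above *Mgp*-KO 4 and 5. Its log2 fold change came to -1.19 (SE 0.54, 95% interval -2.38 to -0.0008, adjusted p = 0.482), and 0.0866 was the adjusted p with the set term. It was -0.51 (adjusted p = 0.381) in replicates 1 to 3 and -2.21 (adjusted p = 0.679) in replicates 4 and 5, and their difference was -1.70 (95% interval -2.75 to -0.66, adjusted p = 0.455), so the sets were not shown to differ. DESeq2 within replicates 4 and 5 called it lower (adjusted p = 9.11e-05), beside 0.37% of its 13521 genes, and DESeq2 with the set term over all 10 libraries did so too (adjusted p = 0.00782), beside 7.42% of 15533.

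The glycerol and fatty acid cycle around *Gk* held the genes of the lists with the lowest median, -0.61 on the log2 scale over 15 tested genes, of which 11 were below 0. None passed limma over all 10 libraries, and *Gpd2* and *Agpat2* fell in limma with the set term. DESeq2 without a further term called *Gpd1*, *Gpd2* and *Agpat2* lower, beside 2.26% of its 16549 genes. *Gpd2*, the mitochondrial glycerol 3-phosphate dehydrogenase, was at 13559.7 to 18337 normalized counts in WT and 6245 to 9659 in the KO-labelled libraries, a log2 fold change of -0.96 (adjusted p = 0.0741, and 0.0160 with the set term). *Agpat2*, which makes phosphatidic acid on the way to triglycerides, was at 9358, 11386, 12759.9, 11543 and 24532 in WT 1 to 5 and at 2321, 517, 3088, 4327 and 4640.0 in *Mgp*-KO 1 to 5, a log2 fold change of -2.47 (adjusted p = 0.0968, and 0.0183 with the set term). *Gpd1*, the cytosolic glycerol 3-phosphate dehydrogenase and the most abundant of the list, was at 89116 to 137964 in WT and 27802 to 57827 in the other group, without overlap (log2 fold change -1.16, adjusted p = 0.172, and 0.0583 with the set term). Within replicates 1 to 3, where 3.54% of all genes passed, *Gpd1*, *Gpd2*, *Agpat2* and *Mgll* fell and *Gk5*, a further glycerol kinase gene, rose. In replicates 4 and 5 none of the 5 passed: the log2 fold change of *Mgll* was -0.36 and that of *Gk5* -0.10, and the groups overlapped for both.

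**Figure D4:**
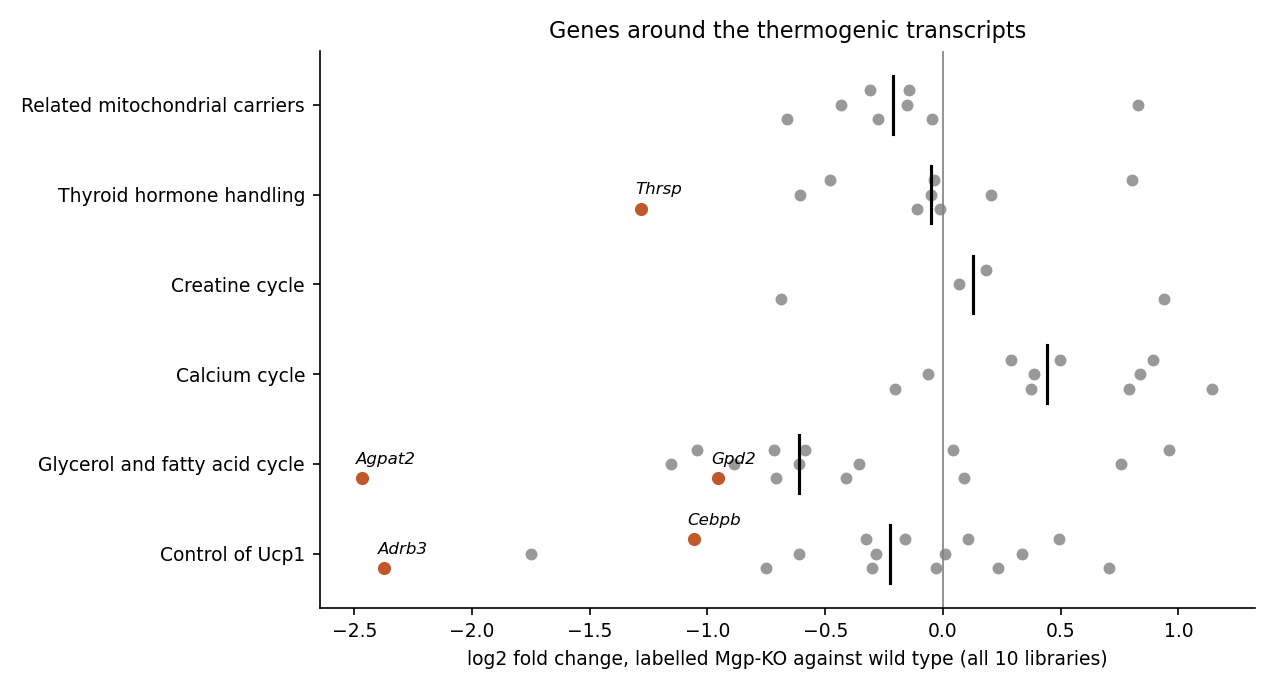
Log2 fold change over all 10 libraries of each tested gene in 6 lists around the 10 transcripts, 1 point per gene, with a line at 0. The lists of 15 genes of the glycerol and fatty acid cycle and 10 genes of calcium cycling have the lowest and highest medians, -0.61 and 0.44.

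Among 17 genes that control *Ucp1*, 16 were tested and none passed limma over all 10 libraries, while *Adrb3* and *Cebpb* fell in limma with the set term. DESeq2 without a further term called 2 lower, *Irf4* and *Adrb3*, beside 2.26% of its 16549 genes. *Adrb3*, the β3-adrenergic receptor through which noradrenaline acts on brown adipocytes, was at 2533, 2591, 2799, 1200.4 and 2589 normalized counts in WT 1 to 5 and at 290.2, 189.7, 334, 868 and 951 in *Mgp*-KO 1 to 5, without overlap. Its log2 fold change was -2.37 (adjusted p = 0.0575, and 0.0163 with the set term), and within replicates 1 to 3 it fell by 3.32 (adjusted p = 0.00142). In replicates 4 and 5 its value was -0.96 (adjusted p = 0.679), and the difference between the sets was 2.36 (adjusted p = 0.455). *Cebpb*, a transcription factor of brown adipocyte differentiation, had a log2 fold change of -1.06 (adjusted p = 0.423, and 0.0420 with the set term). *Pparg*, the nuclear receptor of fat cells and the most abundant of the list, was at 2747 to 3903 in WT and 2174 to 5313 in the KO-labelled libraries (log2 fold change 0.10, adjusted p = 0.922), and the median of the 16 was -0.22. Of 8 mitochondrial carriers related to the uncoupling proteins none passed limma, with a median of -0.21, and *Slc25a20*, the carnitine carrier and the most abundant, was at 6972 to 11976 in WT and 3458 to 7180.4 in the other group (log2 fold change -0.66, adjusted p = 0.37).

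Per kilobase of exon, WT iBAT held a mean of 37210 ± 19677 (SD, n = 5) normalized counts of *Ucp1*, 1719 ± 293 of *Letmd1*, 735 ± 204 of *Ucp3*, 592 ± 116 of *Atp2a2*, 558 ± 642 of *Dio2*, 250.5 ± 219.6 of *Gk*, 246 ± 152 of *Ucp2*, 167 ± 84.3 of *Ckb*, 41.8 ± 26.9 of *Gamt* and 23.5 ± 7.69 of *Gatm*. Between neighbours in this order the ranges over WT libraries overlapped, except that *Ucp1* was above *Letmd1* and *Letmd1* above *Ucp3* in every library. In the KO-labelled libraries, *Ucp1* (6235 ± 3095) and *Letmd1* (963 ± 352) were again first and second, and *Ckb* was at 559 ± 290.0, number 4 in the order against 8 in WT. *Ucp3*, at 187 ± 81.2, was number 6 against 3 in WT, and *Dio2*, at 77.9 ± 125, was number 8 against 5. In this group *Atp2a2* was at 584 ± 190, *Ucp2* at 319.5 ± 137, *Gk* at 80.5 ± 22.7, *Gamt* at 34.9 ± 14.0 and *Gatm* at 20.1 ± 7.75, and the ranges of all neighbours in the order overlapped except those of *Ucp1* and *Letmd1*.

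**Figure D5:**
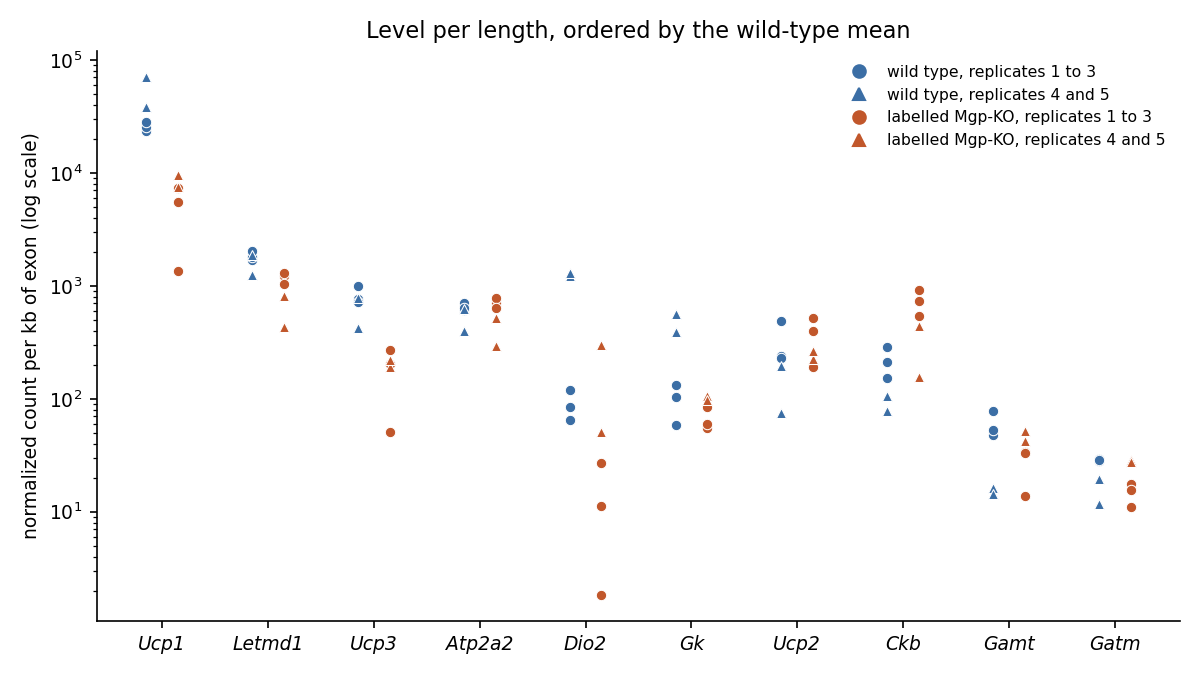
Normalized counts per kilobase of exon (log scale) of the 10 transcripts in each library, ordered by the wild-type mean, blue for wild type and orange for the KO-labelled libraries, circles for replicates 1 to 3 and triangles for replicates 4 and 5. *Ucp1* is first in both groups, and *Ckb* is number 8 in wild type, at a mean of 167, and number 4 in the KO-labelled libraries, at 559.

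Over the 10 libraries, after the mean of each set was taken out of log2(normalized count + 1), *Ucp1* followed *Ucp3* with a Pearson r of 0.98, *Dio2* with 0.92 and *Letmd1* with 0.85, and ran against *Ckb* with -0.73. *Gatm* and *Gamt* had an r of 0.89. With the set means left in, r of *Ucp1* was 0.92 with *Ucp3*, 0.86 with *Dio2*, 0.53 with *Letmd1* and -0.76 with *Ckb*. These values hold the difference between genotypes and describe 10 libraries that share their size factors and depth. Over all tested genes, again with the set means taken out, the genes most like *Ucp1* were *Krt79* (r = 0.989) and *Agpat2* (0.987), and those most like *Ucp3* were *Agpat2* (0.996) and *Hexim1* (0.993). For *Letmd1* they were *Hsd17b12* (0.996) and *Afg1l* (0.993), for *Dio2* *Gm10643* (0.980) and *Lman2l* (0.966), and for *Ckb* *Mfge8* (0.975) and *Mpp3* (0.975). The closest to *Ucp2* were *Ndufa13* (0.961) and *Etfb* (0.957), to *Gatm* *Ret* (0.976) and *Lsm6* (0.945), and to *Gamt* *Eftud2* (0.967) and *Ints1* (0.943). *Atp2a2* was closest to *Lyrm4* (0.968) and *Aph1b* (0.967), and *Gk* to *Carmil1* (0.955) and 3110001I22Rik (0.951).

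Between the sets, 0 of the 10 transcripts had a genotype difference that changed by the test of the difference itself in limma, nor in edgeR, although the unadjusted 95% interval of that difference did not hold 0 for *Gatm*, *Gamt* and *Gk*. *Mgp* was the only gene of 13714 to pass it in limma (0.00729% of genes). Within replicates 4 and 5, limma called 0 genes and 0 of the 10, where 855 genes, 6.23%, and 7 of the 10 passed at an unadjusted p under 0.05, and DESeq2 called *Ucp1*, *Dio2* and *Gk*, beside 0.37% of its genes. DESeq2 within replicates 1 to 3 called 7, all but *Ucp2*, *Atp2a2* and *Gk*, beside 9.19% of its 14739 genes, and edgeR called *Ckb* alone of the 10, beside 3.27%. In replicates 1 to 3, 6 of the 10 were lower without overlap, as were 15.1% of genes, and *Ckb* was higher without overlap, as were 15.5%. In replicates 4 and 5, 5 were lower (21.3% of genes) and 4 higher (20.3%) without overlap. With 1 library left out of replicates 1 to 3, the calls of *Ucp1* and *Ckb* were lost in most cases while their directions stayed. *Ucp1* did not pass without WT 1, 2 or 3 or *Mgp*-KO 1 or 3 (log2 fold change -3.24 to -2.69, adjusted p 0.0557 to 0.170), *Ckb* did not pass without WT 2 or 3 or *Mgp*-KO 1 or 3 (log2 fold change 1.53 to 1.77, adjusted p 0.0614 to 0.0912), and without *Mgp*-KO 2 limma called *Ucp1*, *Ucp3*, *Dio2*, *Ckb* and *Gatm*, beside 5.91% of all genes. The share of all genes called was 0.773% without WT 1, where *Ckb* alone of the 10 passed. It was 0.19% without WT 2, 0.904% without WT 3, 0.678% without *Mgp*-KO 1 and 1.14% without *Mgp*-KO 3, where 0 of the 10 passed.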

How the data were processed

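Single reads of 50 bases were obtained from iBAT RNA of 5 wild-type and 5 *Mgp*-KO males aged 4 weeks. Groups and replicate numbers follow the labels, and the methods describe 5 pairs of mice. The authors mapped the reads to mm10 with STAR 2.5.3a, counted them per gene, and deposited a signal per gene, the count divided by a DESeq2 1.38.3 size factor. The annotation release and strand setting are not given in the sources used here, so *Ucp2*, *Dio2*, *Atp2a2* and *Gk*, which overlap a gene on the other strand, may share reads with it. All deposited values (100%) were whole multiples of 1 read within 0.01 reads, and these reads gave 9253793 to 22252260 per library. A floor of 3 reads was 2.15 to 5.19 normalized counts and speaks for counting error alone, as PCR copies were not told apart by molecular identifiers.

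Limma 3.58.1 in R 4.3.3 (eBayes with a mean-variance trend) tested log2(normalized count + 1) of 13714 genes with a mean of at least 10, so fold changes of low genes are understated, with Benjamini-Hochberg adjustment over all of them and a threshold of 0.05. The set term, fits within sets, edgeR 4.0.16 and DESeq2 1.42.0 on the recovered reads, a replicate block, other pseudocounts, filters and scalings, and leaving out libraries were alternatives. Scripts were tested on simulated data. The 10 transcripts and the gene lists were chosen with earlier results of these data known. Of the lists, genes were named that passed with or without the set term, with the most abundant of each list, and, for each of the 10, the 2 genes with the highest correlation after set means were removed. *Alpl*, *Ckm*, *Ckmt2*, *Atp2a1*, *Ryr1*, *Mgll*, *Gk5*, *Dio1*, *Dio3*, *Slco1c1* and the named marker genes fall outside this rule and were chosen after their values were seen. Gene spans come from GENCODE M21 (GRCm38), in which 25672 symbols (94.2%) matched, and upstream windows from RefSeq (GRCm38.p6), found for 9 of the 10.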

Additional observations from a re-analysis of the deposited data

Results flagged for a closer look

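Each group of 5 was examined for a library that stands far from the other 4, by the gap to its nearest neighbour over the group's whole range, with 0.71 as the 95% limit for 5 samples. Chance flags about 1 in 20 groups, and 20 groups were examined for the 10 transcripts. *Ucp1* in *Mgp*-KO 2, at 2201 normalized counts against 8939 to 15641 in the other KO-labelled libraries, had a ratio of 0.715. *Ucp3* in the same library, at 161 against 599 to 840.0, had a ratio of 0.795. *Mgp*-KO 2 was also the library with the highest sum of skeletal muscle markers, at 41293, and the part of this in its low values was not tested. *Atp2a2* in WT 4, at 2399 against 3715 to 4251 in the other WT libraries, had a ratio of 0.765, and the mitochondrial rRNA share of that library was 8.57%. Without *Mgp*-KO 2 the log2 fold change over all libraries was -2.22 for *Ucp1* and -1.69 for *Ucp3*, and without WT 4 it was -0.21 for *Atp2a2*.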

How the results depend on the processing

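Over all 10 libraries without a further term, 9 genes, 0 of the 10 transcripts and 0 of the 62 tested genes of the lists passed. The count of genes was 29 with a pseudocount of 10, 1 without a filter, 15 with a mean of at least 50, 34 after quantile normalization, 3 in edgeR and 374 in DESeq2. With a set term it was 324 in limma, 341 in edgeR and 1152 in DESeq2, and without *Mgp*-KO 4 and 5 it was 267. With 1 library left out it ranged from 0 (without WT 2, 3 or 5 or *Mgp*-KO 1 or 3) to 93 (without *Mgp*-KO 4). The 10 transcripts gave 4 calls with a set term in limma and 4 in edgeR, 3 in DESeq2, 6 in DESeq2 with a set term, 3 without *Mgp*-KO 4 and 5, and 0 to 2 with 1 library left out. The genes of the lists gave 5 calls with a set term in limma, 8 in edgeR and 14 in DESeq2, 6 in DESeq2 without it, 5 without *Mgp*-KO 4 and 5, and 0 to 2 with 1 library left out. Within replicates 1 to 3, 2 of the 10 passed in limma (3.54% of all genes), 1 in edgeR (3.27%), 7 in DESeq2 (9.19%) and 0 to 5 with 1 library left out (0.19% to 5.91%), and within replicates 4 and 5 the counts were 0 in limma and 3 in DESeq2 (0.37%). The replicate number did not pair the libraries by the check used: same-numbered deviations from the group means correlated at 0.527, 0.0559, 0.327, 0.523 and 0.514, and only replicates 4 and 5 correlated best with their own number. A fit with a replicate block passed 270 genes in limma and 222 in edgeR, with 4 of the 10 transcripts and 4 genes of the lists in each. The direction of *Ucp1*, *Ucp3*, *Letmd1*, *Dio2*, *Ckb*, *Ucp2*, *Gatm* and *Gk* was the same in all 25 alternatives over all libraries. With 1 library left out, the log2 fold change of *Gamt* ranged from -0.39 to 0.21, that of *Atp2a2* from -0.21 to 0.16, and that of *Ucp2* within replicates 1 to 3 from -0.12 to 0.61, and *Atp2a2* was at 0.27 without *Mgp*-KO 4 and 5, so no direction is given for them over those libraries. The cause of these shifts was not tested. The fewest reads in a library were 12 for *Gamt*, 14 for *Dio2* and 24 for *Gatm*.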

Other observations

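Of the genes that control *Ucp1*, *Irf4*, a transcription factor of the thermogenic program in brown adipocytes, was named after its values were seen. It was at 404, 697, 3224, 1375 and 919 normalized counts in WT 1 to 5 and at 287, 510.2, 366, 325 and 151 in *Mgp*-KO 1 to 5, so that WT 1 lay within the KO-labelled range and the other 4 above it. DESeq2 without a further term called it lower (log2 fold change -2.01, adjusted p = 0.00637), while limma gave -1.75 (adjusted p = 0.214, and 0.0873 with the set term). *Gpam*, which starts the making of triglycerides from glycerol 3-phosphate, was likewise named afterwards. It was at 4731, 4389.9 and 5191 in WT 1 to 3 and 3611, 3010.1 and 3689 in *Mgp*-KO 1 to 3, and at 1259 and 2485 against 503 and 447 in replicates 4 and 5. *Gpam* was thus lower without overlap within each set, as were 15.1% of tested genes in replicates 1 to 3 and 21.3% in replicates 4 and 5. Its log2 fold change was -1.04 (limma, adjusted p = 0.633, and 0.0715 with the set term).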
